A study of Mus musculus with 30 samples.

Results

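The nuclear genes of the mitochondrial respiratory chain and ATP synthase were examined in sorted CD4+ T cells. They were taken as every gene whose symbol begins with Nduf, with Cox and a digit from 4 to 8, with Uqcr or with Atp5, together with Sdha, Sdhb, Sdhc and Sdhd. The rule found 71 of the 8251 genes that a probe set of the array named alone, carried by 98 of 12422 probe sets. Complex I had 29 genes, complex II 4, complex III 7, complex IV 15 and complex V 14, and the complex I assembly factors Ndufaf1 and Ndufaf4 were kept apart. Each gene was read from its brightest probe set, and 51 of the 71 genes had only 1. The brightest probe set was of the family kind (_f_at) for 10 genes, among them Ndufa3, Uqcrb, Cox6a1, Atp5d and Atp5g2, and of the shared kind (_s_at) for 2, among them Sdhb. Both kinds can match more than 1 transcript.

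Complexes I and II pass electrons from NADH and succinate to ubiquinone, complex III passes them on to cytochrome c, and complex IV hands them to oxygen. Complexes I, III and IV pump protons across the inner mitochondrial membrane, and complex V uses the proton gradient to make ATP. Complex II is also the succinate dehydrogenase of the citric acid cycle and the only one of the chain whose subunits are all encoded in the nucleus. Regulatory T cells, which hold back autoimmune attack, are known for relying on oxidative metabolism more than activated effector T cells do.

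The 30 one-colour MG-U74Av2 arrays were hybridized with amplified RNA of CD4+ T cells from NOD mice, a strain that develops autoimmune diabetes. All animals carried the BDC2.5 T cell receptor transgene, so most of their T cells share a receptor for a pancreatic islet antigen. In pancreas set 1, mice were given rat IgG, with no age in the labels. It held 3 arrays of Treg cells, sorted as CD4+CD25+CD69-, and 5 of Teff cells, sorted as CD4+ with CD25 low or negative and CD69 positive or negative. Pancreas set 2 held 3 arrays of CD4+CD25+ Treg cells and 3 of CD4+CD25- Teff cells from mice of 26 days given an antibody to ICOS, a costimulatory receptor. It also held 2 arrays of IgG Treg cells, from mice of 4 weeks and of 26 days. The lymph node set came from mice of 4 weeks. Mesenteric nodes gave 5 CD25+ and 3 CD25- arrays, and peripheral nodes gave 3 of each. The gates of the anti-ICOS and IgG samples were not the same, nothing in the labels says that replicates came from separate animals, and p-values measure only the spread between these arrays, whose number limits the precision. All values are log2 intensities, differences are on that scale, first-named group less second, with a standard error (SE), and a gene is called where limma's Benjamini-Hochberg adjusted p over 12422 probe sets was under 0.05. Less RNA of a gene in each cell and fewer cells expressing it cannot be told apart in such bulk samples.

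The sorted populations matched their labels in most arrays. All 10 measured T cell identity genes lay above the array median in every group. The mean of 11 measured Treg markers, among them Il2ra, Ctla4 and Nrp1, was 7.06 to 7.19 in the IgG Treg arrays of set 1 and 4.93 to 5.11 in the Teff arrays. Anti-ICOS Treg replicate 3 stood apart, with a Treg marker mean of 4.93 where the other two of its group had 6.66 and 7.33. The anti-ICOS Teff arrays had 4.73 to 5.18. Mesenteric CD25+ replicate 2 carries a CD25- source name but had a marker mean of 6.24, beside 6.29 to 6.51 in the rest of its group and 4.44 to 4.53 in CD25- arrays, and without it 11 genes were called in the mesenteric comparison, as with it. The log2 ratio of the 3' to the 5' actin probe set, which rises where RNA is shorter, was higher in the Treg cells of set 1 (3.75 ± 0.76 SD, n = 3) than in the Teff cells (2.65 ± 0.31 SD, n = 5; exact permutation test over 56 splits, two-sided, p = 0.0357, 0.175 after adjustment over 7 tests).

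The 6 genes Sdhb, Uqcr11, Cox5b, Sdha, Sdhd and Ndufaf4 were called in more than 1 of the comparisons of Treg with Teff or CD25+ with CD25- cells, so the 250 bases before the RefSeq transcription start of each are shown (GRCm38.p6, 5' to 3' on the gene's strand). They were chosen after the values were seen. The windows lie at chr4:140961021-140961270 (+ strand) for Sdhb, chr10:80406822-80407071 (- strand) for Uqcr11, chr1:36691237-36691486 (+ strand) for Cox5b, chr13:74350241-74350490 (- strand) for Sdha, chr9:50603850-50604099 (- strand) for Sdhd and chr4:24897833-24898082 (+ strand) for Ndufaf4. Capitals mark matches, on either strand, to short motifs of factors known to act on respiratory genes or on many promoters: GCATGCG (core of the NRF1 site), CCGGAAG (ETS family, to which GABPA belongs), AGATGGC (YY1), AAGGTCA (estrogen-related receptors) and GGGCGG (Sp1).
Sdhb: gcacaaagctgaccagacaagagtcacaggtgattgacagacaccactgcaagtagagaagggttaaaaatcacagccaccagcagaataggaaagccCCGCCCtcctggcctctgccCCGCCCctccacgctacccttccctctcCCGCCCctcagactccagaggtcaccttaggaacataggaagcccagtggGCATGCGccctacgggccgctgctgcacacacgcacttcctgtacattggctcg
Uqcr11: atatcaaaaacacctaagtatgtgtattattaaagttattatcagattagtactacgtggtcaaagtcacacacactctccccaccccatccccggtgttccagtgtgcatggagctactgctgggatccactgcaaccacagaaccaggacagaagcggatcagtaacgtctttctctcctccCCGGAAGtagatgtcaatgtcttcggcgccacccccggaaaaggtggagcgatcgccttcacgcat
Cox5b: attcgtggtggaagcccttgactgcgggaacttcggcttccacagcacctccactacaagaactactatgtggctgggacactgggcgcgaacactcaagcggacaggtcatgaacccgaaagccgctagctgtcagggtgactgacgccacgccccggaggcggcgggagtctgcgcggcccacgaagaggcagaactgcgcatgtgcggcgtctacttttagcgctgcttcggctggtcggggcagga
Sdha: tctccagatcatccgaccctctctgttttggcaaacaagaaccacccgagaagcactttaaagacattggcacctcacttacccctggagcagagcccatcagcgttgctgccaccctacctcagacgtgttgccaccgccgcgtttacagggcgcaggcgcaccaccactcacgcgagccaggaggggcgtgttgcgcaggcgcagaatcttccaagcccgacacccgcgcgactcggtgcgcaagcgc
Sdhd: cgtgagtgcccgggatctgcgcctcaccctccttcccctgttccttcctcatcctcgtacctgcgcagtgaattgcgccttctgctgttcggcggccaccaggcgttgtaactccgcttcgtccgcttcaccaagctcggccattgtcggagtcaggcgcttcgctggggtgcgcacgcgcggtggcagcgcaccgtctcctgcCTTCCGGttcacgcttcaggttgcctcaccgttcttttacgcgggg
Ndufaf4: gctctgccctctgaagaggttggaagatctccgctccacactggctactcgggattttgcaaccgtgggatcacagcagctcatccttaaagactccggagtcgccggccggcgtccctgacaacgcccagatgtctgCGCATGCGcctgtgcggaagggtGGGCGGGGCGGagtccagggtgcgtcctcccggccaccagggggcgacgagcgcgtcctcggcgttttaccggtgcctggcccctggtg

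Of the 6 windows, that of Sdhb held 1 NRF1 core and 3 Sp1 matches, and that of Ndufaf4 held 2 overlapping NRF1 matches, 1 on each strand, and 2 overlapping Sp1 matches. The windows of Sdhd and Uqcr11 held 1 ETS match each, and those of Sdha and Cox5b held none of the 5 motifs. Windows were matched for 58 of the 71 genes, 63 windows in all. The NRF1 core was in 14.3% of them, against 3.02% of all 32851 promoter windows of the same length. The ETS motif was in 19% against 6.91%, and Sp1 in 39.7% against 32.7%. YY1 was in 4.76% against 4.57%, and the estrogen-related receptor motif in 3.17% against 4.08%. A match describes letters only and does not show binding.

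**Figure D1:**
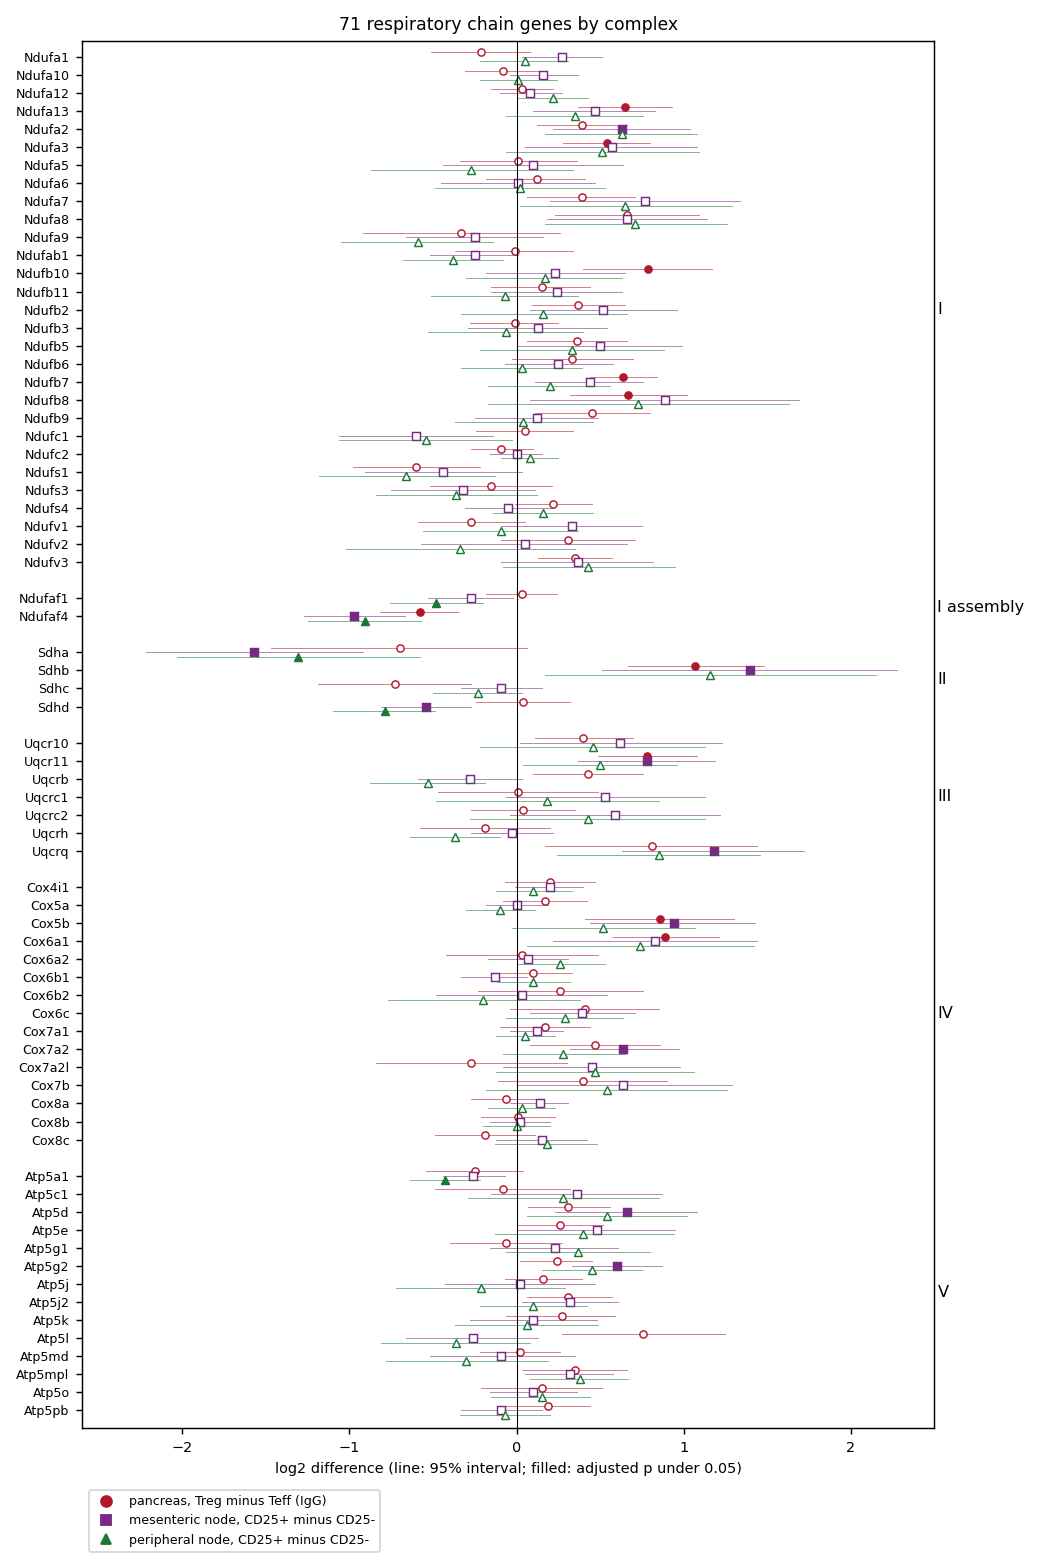
Log2 difference of each of the 71 genes (x axis, with its 95% interval) in the pancreas (IgG Treg minus Teff, circles), the mesenteric node (CD25+ minus CD25-, squares) and the peripheral node (triangles), ordered by complex on the y axis, with called genes filled. In complex II, Sdhb lies to the right and Sdha to the left of 0 in all 3 comparisons.

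The first question was how pancreatic Treg cells differ from Teff cells. In the IgG arrays of set 1, 9 of the 71 genes were higher in Treg cells and 1 was lower. Over all 8251 genes, 4.48% were called higher and 3.24% lower. The median difference of the 71 genes was 0.17, and 52 were positive. Over all genes the median was 0.02 and 55.9% were positive. The 71 genes were brighter, with a median level of 6.802 over the 30 arrays against 5.301 for all genes. Of the 71, 57 lay above the median of all genes. The shares over all genes, here and below, are not matched for level. The genes called higher were Ndufa3, Ndufa13, Ndufb7, Ndufb8 and Ndufb10 of complex I, Sdhb of complex II, Uqcr11 of complex III, and Cox5b and Cox6a1 of complex IV. No complex V gene was called from its brightest probe set. The actin ratio was also higher in these Treg cells. With that ratio as a covariate the median stayed at 0.17 and none of the 71 genes was called (0.63% of all genes higher and 0.0727% lower), and its part in the result was not tested beyond that fit.

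In complex I, 5 of 29 genes rose and the median difference was 0.22. Ndufb7, an accessory subunit of the membrane arm, read 8.02, 7.98 and 8.06 in the 3 Treg arrays and 7.46, 7.47, 7.22, 7.47 and 7.28 in the 5 Teff arrays. The groups did not overlap, with a difference of 0.64 (SE 0.09, limma adjusted p = 0.00282). Ndufb10, also of the membrane arm, read 6.27, 5.82 and 5.69 in Treg cells and 5.47, 5.13, 4.73, 5.27 and 5.11 in Teff cells, a difference of 0.79 (SE 0.17, limma adjusted p = 0.025). Both have a second, dim probe set, whose differences were -0.05 for Ndufb7 and 0.06 for Ndufb10, and averaging the probe sets of a gene ended both calls. Ndufa13, an accessory subunit also known as Grim19, differed by 0.65, Ndufb8 by 0.67 and Ndufa3 by 0.54. When 1 array at a time was removed, the call of Ndufb8 stayed only without Treg replicate 3 or Teff replicate 1 or 4, and those of Ndufa3 and Ndufb10 only without one of these or Teff replicate 3. The adjusted p reached 0.1 for Ndufb8, 0.0663 for Ndufa3 and 0.066 for Ndufb10. In the opposite direction, Ndufs1, the largest iron-sulfur subunit of the peripheral arm, had a difference of -0.60 that missed the threshold (limma adjusted p = 0.0675). Its values were 6.46, 6.79 and 7.27 in Treg cells against 7.24 to 7.71 in Teff cells, so that the groups overlapped.

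Ndufaf4, which helps to assemble complex I, fell. Its level was 3.89, 4.24 and 4.15 in Treg arrays and 4.57, 4.55, 4.74, 4.73 and 4.79 in Teff arrays, a difference of -0.58 (SE 0.11, limma adjusted p = 0.00938). Every Treg array was below every Teff array. A dimmer second probe set of the gene differed by 0.08. Ndufaf1, another assembly factor of complex I, differed by 0.03.

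The 4 genes of complex II did not move together. Sdhb, the iron-sulfur subunit, read 7.57, 7.69 and 7.52 in Treg arrays and 6.99, 6.18, 6.14, 6.68 and 6.59 in Teff arrays. All Treg arrays were above all Teff arrays, by 1.07 on average (SE 0.18, limma adjusted p = 0.00704), which is 2.11-fold. Sdha, the flavoprotein that oxidizes succinate, read 4.69, 6.30 and 6.31 in Treg arrays and 6.25, 6.08, 6.79, 6.76 and 6.47 in Teff arrays. The groups overlapped, and the difference of -0.70 was not called. Treg replicate 1 was the low array, with an actin ratio of 3.69, beside ratios of 4.53 and 3.02 in the other two. In set 2 the lowest Sdha values, 4.38 in anti-ICOS Treg replicate 1 and 4.57 in IgG Treg replicate 1, came with the highest ratios of their groups, 4.06 and 4.16. The part of RNA length in the level of Sdha was not tested. Sdhc, a membrane anchor, read 6.25, 7.04 and 7.31 in Treg arrays and 7.42 to 7.72 in Teff arrays. Its groups did not overlap, and its difference of -0.73 (SE 0.21) missed the threshold (limma adjusted p = 0.0645). Sdhd, the other anchor, differed by 0.04 (SE 0.13).

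**Figure D2:**
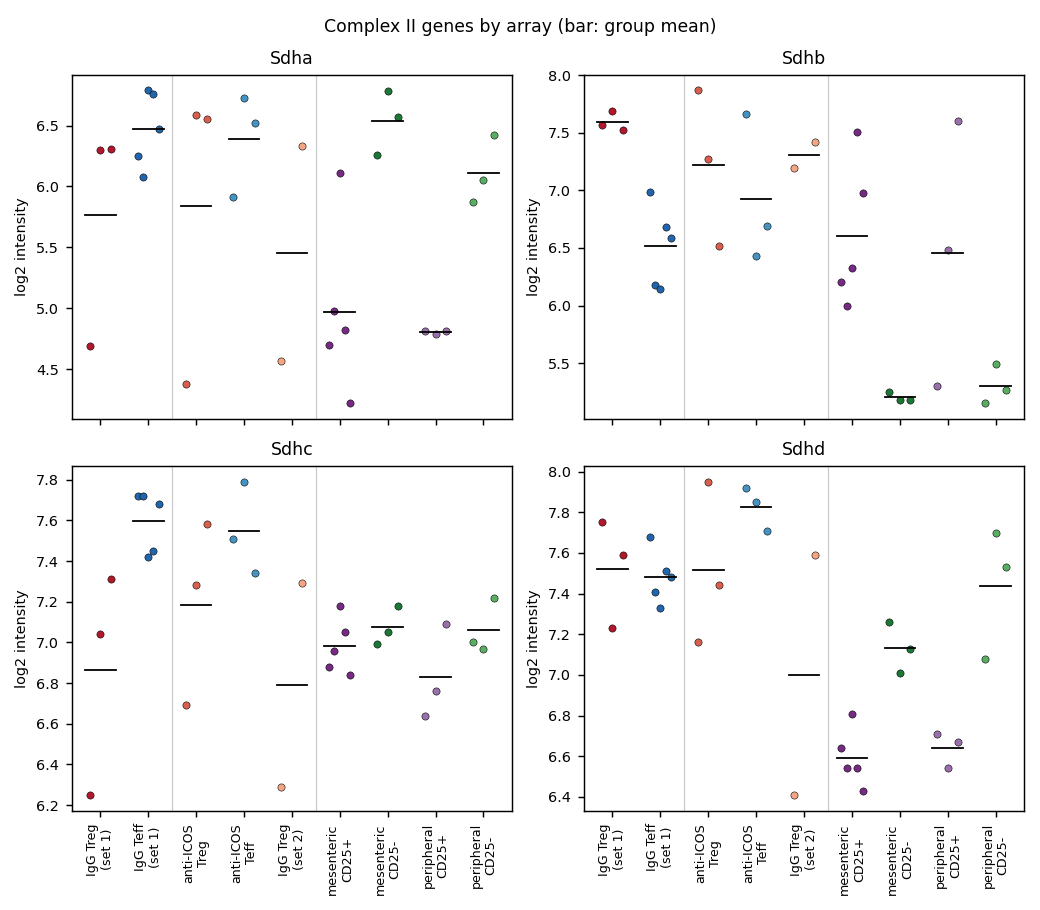
Log2 intensity (y axis) of the 4 complex II genes in all 30 arrays by group (x axis), with 1 point per array and a bar at the group mean; vertical lines part the 3 sets of records, which are compared by eye only within a set. Sdha lies lower in the CD25+ than in the CD25- arrays of both nodes (4.22 to 6.11 against 6.26 to 6.78 in the mesenteric node), and Sdhb lies higher in the mesenteric CD25+ arrays.

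In complex III, 1 of 7 genes rose and the median difference was 0.40. Uqcr11, a small subunit, read 6.91, 7.03 and 7.01 in Treg arrays and 6.62, 6.15, 6.04, 6.13 and 6.05 in Teff arrays. The difference was 0.78 (SE 0.13, limma adjusted p = 0.00722), and Teff replicate 1 was the high array of its group. Uqcrq, a small subunit known as QP-C, had the largest difference of the complex, 0.81 (SE 0.29), which was not called (limma adjusted p = 0.14). Treg replicate 1 was at 9.67 and the other two at 8.44 and 8.39, both under the highest Teff array at 8.52. The core proteins Uqcrc1 and Uqcrc2 differed by 0.01 and 0.04.

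In complex IV, 2 of 15 genes rose and 12 differences were positive, with a median of 0.17. Cox6a1, the widely expressed isoform of subunit 6A, read 9.52, 9.42 and 9.25 in Treg arrays and 8.88, 8.22, 8.43, 8.60 and 8.39 in Teff arrays. The groups were apart by 0.89 (SE 0.14, limma adjusted p = 0.00496), and the call held whichever of the 8 arrays was removed. Its muscle isoform Cox6a2 differed by 0.03. Cox5b, which sits on the matrix side of the enzyme, read 7.88, 7.72 and 7.72 in Treg arrays and 7.57, 6.81, 6.47, 6.87 and 6.86 in Teff arrays, a difference of 0.86 (SE 0.20, limma adjusted p = 0.031). With 1 array removed it stayed called only without Teff replicate 1 or 3, and its adjusted p ranged from 0.00191 to 0.0941. The subunit 7A isoforms Cox7a2 and Cox7a1 differed by 0.47 and 0.17 and the related Cox7a2l by -0.27, none of them called. Subunit 8 has 3 isoforms, Cox8a, Cox8b and Cox8c, whose differences of -0.06, 0.01 and -0.19 were not called either. Cox4i1 differed by 0.20.

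In complex V, none of 14 genes was called, although 11 differences were positive with a median of 0.21. Atp5l, which encodes subunit g of the membrane part, differed by 0.76 (SE 0.22, limma adjusted p = 0.0718), with Treg arrays at 8.15, 7.07 and 7.14 and Teff arrays between 6.49 and 6.90. A dimmer probe set of Atp5l was called at 0.44 (limma adjusted p = 0.0369). Atp5mpl differed by 0.35, and the largest negative values were -0.25 for Atp5a1, the catalytic-core subunit alpha, and -0.08 for Atp5c1, the rotor subunit gamma. Atp5g1 and Atp5g2, isoforms of the c-ring subunit, differed by -0.06 and 0.24.

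The array numbers in the labels fall into runs, and 3 of them held both cell types of set 1. Within these runs Sdhb differed by 0.98, 1.55 and 0.88, Cox6a1 by 0.97, 0.99 and 0.76, and Ndufaf4 by -0.67, -0.50 and -0.61. Without Treg replicate 2, Teff replicate 2 or Teff replicate 5, 6 genes were called, and each time these were Ndufa13, Ndufb7, Ndufaf4, Sdhb, Uqcr11 and Cox6a1. The share of all genes called in these refits is not given here. The B cell genes Ighm, Cd79b and Blk were also called higher in these Treg cells, 3 of 7 measured, with a mean of the list between 5.79 and 5.92 in Treg arrays and between 5.49 and 5.63 in Teff arrays. Of 3 measured erythroid genes 0 were called, but Hba-a1, a hemoglobin gene, averaged 11.25 in Treg against 10.08 in Teff arrays and Alas2 6.93 against 6.47. The erythroid list mean was 7.55 to 7.86 in Treg and 6.39 to 7.74 in Teff arrays. No gene was called from the lists of macrophages, granulocytes, CD8 and NK cells, exocrine or islet cells, stroma or muscle. The part of other cells in the differences was not tested.

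**Figure D3:**
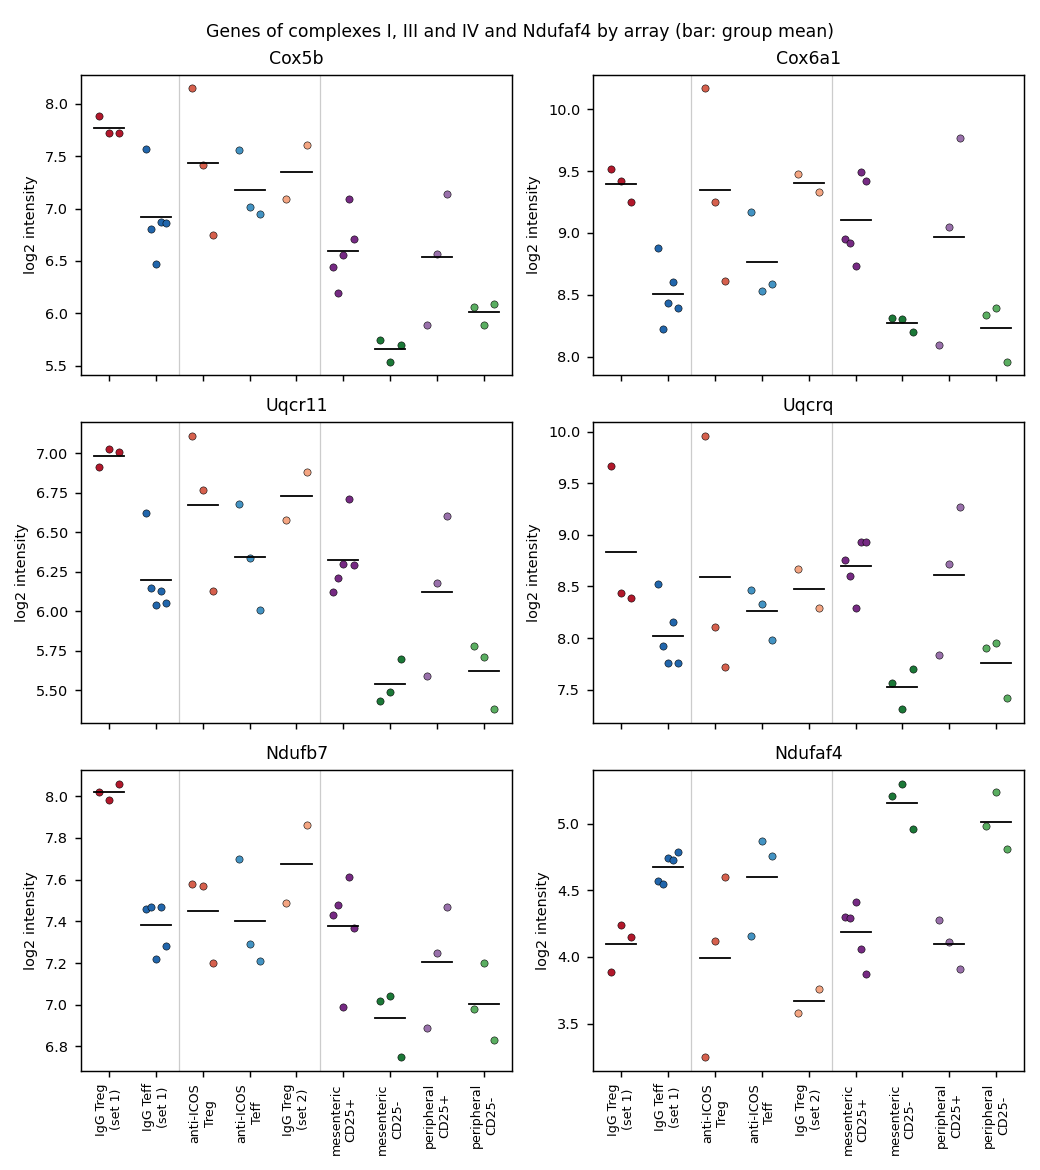
Log2 intensity (y axis) of Cox5b, Cox6a1, Uqcr11, Uqcrq, Ndufb7 and Ndufaf4 in all 30 arrays by group (x axis), with 1 point per array and a bar at the group mean; vertical lines part the 3 sets. Ndufaf4 is the only one of the 6 that is lower in the Treg or CD25+ arrays of set 1 and both nodes. The 3 peripheral CD25+ arrays are spread widely for Cox5b, Cox6a1, Uqcr11 and Uqcrq.

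With the antibody to ICOS, the same Treg and Teff comparison gave no called gene among the 71, and none over the whole array (0.00%). The smallest unadjusted p of the 71 also lay above 0.05, while 1.67% of all genes lay below it. The median difference was 0.06, with 44 of 71 positive, against 54.2% of all genes. Sdhb read 7.87, 7.27 and 6.52 in the anti-ICOS Treg arrays and 7.66, 6.43 and 6.69 in the Teff arrays, a difference of 0.30 (SE 0.39). Cox6a1 read 10.17, 9.25 and 8.61 against 9.17, 8.53 and 8.59, a difference of 0.57 (SE 0.37). Ndufaf4 read 3.25, 4.12 and 4.60 against 4.16, 4.87 and 4.76, a difference of -0.60 (SE 0.34). The groups overlapped in each of these 3 genes, and Treg replicate 3, the array with low Treg markers, lay within the Teff range in all of them. Without that array the differences were 0.65 for Sdhb, 0.94 for Cox6a1 and -0.91 for Ndufaf4, and still no gene was called. Over all 3 arrays of each group, differences ran from -0.44 to 0.43 in complex I, -0.55 to 0.30 in complex II, -0.48 to 0.33 in complex III, -0.38 to 0.57 in complex IV and -0.19 to 0.20 in complex V. The labels do not say that replicate numbers pair these samples. With the replicate number as a block, 0 of the 71 genes were called. The difference between the anti-ICOS and the IgG contrast was tested in a joint fit, and 0 of 71 genes were called in limma, with 1 at an unadjusted p under 0.05, against 2.63% of all probe sets. The IgG contrast of that fit set the IgG Treg arrays of both sets against the Teff arrays of set 1, so it was not the set 1 contrast above. All anti-ICOS arrays lie in set 2, and treatment and set of records cannot be told apart in this test.

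The comparison of anti-ICOS with IgG cells of the same type asked whether the treatment moved these genes. In Treg cells of set 2 none of the 71 genes was called, nor at an unadjusted p under 0.05, and none was called on the whole array (0.00%). The median difference was 0.07, against -0.04 for all genes. The IgG side held 2 arrays, with a macrophage and dendritic cell list mean of 4.58 to 6.11, against 4.39 to 5.04 in anti-ICOS Treg arrays. Its erythroid list mean was 7.71 to 9.27 against 5.14 to 7.64, and its exocrine list mean 6.12 to 6.9 against 5.49 to 7.21. The part of such cells was not tested. Ndufb11, an accessory subunit of complex I, had a difference of 0.42 (95% interval -0.03 to 0.87). In Teff cells, which came from different sets and were quantile-normalized together, 0 of 71 were called (0.00% on the whole array) and the median was 0.09. Treatment and set of records cannot be told apart in this comparison. The count of 0 depends on the normalization. As deposited 5 genes were called lower, with 28.6% of all genes lower and 0.0242% higher, and with arrays centred on their median 1 was higher and 2 were lower, with 0.218% and 10.5% of all genes. Sdhd had a difference of 0.39 (95% interval -0.05 to 0.82). These intervals still allow changes as large as several of the Treg differences above.

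In lymph nodes the question was how CD25+ cells, which include Treg cells, differ from CD25- cells. In the mesenteric node, 8 of the 71 genes were higher in CD25+ cells and 3 were lower, where 5.49% of all genes were called higher and 9.14% lower. With arrays centred on their median 5 were higher and 4 lower, against 3.84% and 10.3%. The median difference was 0.16, against 0.05 for all genes, and 52 of 71 were positive, against 60.9% of all genes. The genes that rose were Ndufa2, Sdhb, Uqcr11, Uqcrq, Cox5b, Cox7a2, Atp5d and Atp5g2. The genes that fell were Sdha, Sdhd and Ndufaf4. In the peripheral node none rose and 5 fell, Sdha, Sdhd, Ndufaf1, Ndufaf4 and Atp5a1, with 2.04% of all genes called higher and 7.17% lower there.

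Complex II was split in the nodes as well. Sdha read 4.70, 4.98, 6.11, 4.82 and 4.22 in the 5 mesenteric CD25+ arrays and 6.26, 6.78 and 6.57 in the CD25- arrays. The groups did not overlap, and the difference of -1.57 (SE 0.30, limma adjusted p = 0.00437) is a 2.97-fold lower level. In the peripheral node Sdha read 4.81, 4.79 and 4.81 against 5.87, 6.05 and 6.42, a difference of -1.31 (SE 0.34, limma adjusted p = 0.0295), again with no overlap. With 1 array removed, the peripheral call stayed only without CD25+ replicate 1 or CD25- replicate 1, with adjusted p up to 0.113, and the difference lay between -1.43 and -1.15 under its alternatives.

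Sdhb went the other way. It read 6.20, 6.00, 6.33, 7.51 and 6.98 in mesenteric CD25+ arrays and 5.25, 5.18 and 5.18 in CD25- arrays, a difference of 1.40 (SE 0.41, limma adjusted p = 0.0409). Every CD25+ array was above every CD25- array, but with 1 array removed the call stayed only without CD25+ replicate 1, 2 or 3, and the adjusted p reached 0.129. In the peripheral node Sdhb read 5.30, 6.48 and 7.60 against 5.15, 5.49 and 5.27. CD25+ replicate 1 fell within the CD25- range, and the difference of 1.16 (SE 0.46) was not called (limma adjusted p = 0.159).

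Sdhd, an anchor of complex II, read 6.64, 6.54, 6.81, 6.54 and 6.43 in mesenteric CD25+ arrays and 7.26, 7.01 and 7.13 in CD25- arrays, a difference of -0.54 (SE 0.13, limma adjusted p = 0.013). In the peripheral node it read 6.71, 6.54 and 6.67 against 7.08, 7.70 and 7.53, a difference of -0.79 (SE 0.14, limma adjusted p = 0.00376). The groups were apart at both sites, and the mesenteric call was lost without CD25- replicate 1. Sdhc differed by -0.09 and -0.23, with neither called. Ndufaf4 fell by 0.97 in the mesenteric node (4.30, 4.29, 4.41, 4.06 and 3.87 against 5.21, 5.30 and 4.96; limma adjusted p = 0.00071). It fell by 0.91 in the peripheral node (4.28, 4.11 and 3.91 against 4.98, 5.24 and 4.81; limma adjusted p = 0.00294), and its dimmer probe set differed by 0.08 and 0.21. Ndufaf4 and Ndufaf1, which fell by 0.48 in the peripheral node, were no longer called there when probe sets were averaged, and the Ndufaf1 call was lost whichever of the 6 arrays was removed.

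In complex I, 1 of 29 genes rose in the mesenteric node. Ndufa2, an accessory subunit of the peripheral arm, differed by 0.63 (SE 0.19, limma adjusted p = 0.047), and stayed called only without CD25+ replicate 2 when 1 array was removed (adjusted p up to 0.166). None was called in the peripheral node, where Ndufb8 (0.73) and Ndufa8 (0.71) had the largest positive and Ndufs1 (-0.66) and Ndufa9 (-0.59) the largest negative differences.

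In complex III, Uqcrq read 8.76, 8.60, 8.29, 8.93 and 8.93 in mesenteric CD25+ arrays and 7.56, 7.31 and 7.70 in CD25- arrays, a difference of 1.18 (SE 0.25, limma adjusted p = 0.00813) with no overlap. Uqcr11 read 6.12, 6.21, 6.30, 6.71 and 6.29 against 5.43, 5.49 and 5.70, a difference of 0.78 (SE 0.19, limma adjusted p = 0.0162). Their peripheral differences were 0.85 and 0.50 and were not called, and Uqcrb, a small subunit that takes part in ubiquinone binding, had a peripheral difference of -0.53 that was not called either (limma adjusted p = 0.0603). Without mesenteric CD25- replicate 2 neither Uqcrq nor Uqcr11 stayed called in the mesenteric node, and without CD25- replicate 1 only Uqcrq did.

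In complex IV, Cox5b read 6.44, 6.19, 6.56, 7.09 and 6.71 in mesenteric CD25+ arrays and 5.75, 5.54 and 5.70 in CD25- arrays, a difference of 0.94 (SE 0.23, limma adjusted p = 0.0167). Cox7a2, the widely expressed isoform of subunit 7A, read 7.91, 8.03, 7.92, 8.18 and 8.32 against 7.41, 7.23 and 7.66, a difference of 0.64 (SE 0.15, limma adjusted p = 0.0137). Both genes had CD25+ arrays above all CD25- arrays, and both calls were lost without mesenteric CD25- replicate 1 or 2. Cox6a1 differed by 0.83 and was not called (limma adjusted p = 0.0754). The 2 probe sets of Cox4i1 did not give the same picture. The brighter one differed by 0.20 and the dimmer one by 0.81 (limma adjusted p = 0.00422), and in the peripheral node by 0.10 and 0.62 (limma adjusted p = 0.0439 for the dimmer one). No complex IV gene was called there from its brightest probe set, with Cox6a1 (0.74) and Cox7b (0.54) the largest positive and Cox6b2 (-0.20) and Cox5a (-0.10) the largest negative differences.

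In complex V, Atp5g2 read 7.65, 7.52, 7.41, 7.60 and 7.41 in mesenteric CD25+ arrays and 6.88, 6.78 and 7.09 in CD25- arrays, a difference of 0.60 (SE 0.12, limma adjusted p = 0.00663). Its call held whichever array was removed and under all 8 other settings. Atp5d, the delta subunit of the central stalk, differed by 0.66 (limma adjusted p = 0.0449) and stayed called only without CD25+ replicate 1 or 2 when 1 array was removed (adjusted p up to 0.171). At the peripheral site Atp5a1 was the called gene of complex V. It read 10.26, 10.34 and 10.38 in CD25+ arrays and 10.75, 10.86 and 10.67 in CD25- arrays, a difference of -0.43 (SE 0.10, limma adjusted p = 0.0138) that was lost without CD25- replicate 2. The same gene differed by -0.26 in the mesenteric node, where it was not called.

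Peripheral CD25+ replicate 1 decides much of the peripheral count. Its values lay low for Sdhb (5.30), Ndufb8 (5.25, against 6.50 and 7.44) and Cox6a1 (8.09, against 9.05 and 9.77), and its actin ratio of 3.30 was the highest of the node arrays. Without it, 17 of the 71 genes were called, 13 higher and 4 lower, where 5.15% of all genes were called higher and 8.69% lower, and the higher ones included Sdhb, Uqcr11, Uqcrq, Cox5b, Cox6a1 and Atp5g2. Without peripheral CD25- replicate 2, 2 genes were called, Ndufaf4 and Sdhd, and without CD25+ replicate 2 or CD25- replicate 3 these and Atp5a1. Without mesenteric CD25- replicate 1 or 2, 4 mesenteric genes were called, and Ndufaf4, Sdha and Atp5g2 were among them both times. Shares of all genes called are not given here for the fits of these 2 sentences, so their counts cannot be set against the whole array. The actin ratio was 2.85 ± 0.19 (SD, n = 5) in mesenteric CD25+ and 2.63 ± 0.05 (SD, n = 3) in CD25- arrays, and 3.02 ± 0.27 (SD, n = 3) against 2.54 ± 0.20 (SD, n = 3) in the peripheral node. With it as a covariate, 6 mesenteric genes were called, Sdha, Sdhd, Ndufaf4, Uqcrq, Cox7a2 and Atp5g2, where 3.31% of all genes were called higher and 6.77% lower. With it 0 peripheral genes were called, against 0.509% and 2.11% of all genes. Of the 7 measured B cell genes, 2 were called higher in mesenteric CD25+ arrays, Cd79b (1.07) and Blk (1.59), and 0 lower. Ms4a1 averaged 6.14 against 6.58 in CD25- arrays, Cd22 4.86 against 4.96 and Cd79a 5.54 against 5.48, and the list mean was 5.83 to 6.04 against 5.41 to 5.74. The exocrine pancreas list, with 0 of 6 genes called, had a mean of 5.34 to 5.66 against 5.19 to 5.32. In the peripheral comparison 0 of the 7 B cell genes were called. The part of such cells was not tested.

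The node arrays fall into 2 runs, each with both cell types of both sites. Sdha differed by -1.68 and -1.52 within these runs in the mesenteric node and by -1.34 and -1.24 in the peripheral node. Sdhb differed by 0.88 and 1.76, and by 0.68 and 2.12. Its difference was larger in the same run at both sites.

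The 2 node sites were then compared. The difference between the mesenteric and the peripheral CD25 contrast was not called for any of the 71 genes in limma, and for 1 of all 12422 probe sets. None of the 71 had an unadjusted p under 0.05, against 3.08% of all probe sets. Among CD25+ cells, mesenteric against peripheral, 0 of 71 were called (0.0848% of all genes were called higher and 0.00% lower), with 1 at an unadjusted p under 0.05, against 4.38% of all genes. The median difference was 0.11 and 55 of 71 were positive, against 50.8% of all genes. Averaged over the 71 genes, peripheral CD25+ replicate 1 was low at 6.29. Replicates 2 and 3 of that group read 6.60 and 6.84, beside 6.60 to 6.81 in the mesenteric CD25+ arrays. Among CD25- cells 0 of 71 were called and none had an unadjusted p under 0.05, with 0.242% of all genes called higher and 0.267% lower, and the median was -0.02.

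The pancreas and node contrasts share no arrays. Cox5b, Sdhb and Uqcr11 rose in both the pancreatic and the mesenteric comparison, which is 3 of the 9 called in pancreas and 3 of the 8 called in the node. Over all genes, 4.48% were called higher in the pancreas and 5.49% in the mesenteric node, and the share called in both is not given here. Ndufaf4 fell in the pancreas and at both node sites. Sdha and Sdhd fell at both node sites, and in the pancreas differed by -0.70 and 0.04 without a call. Across the 71 genes, which are not independent replicates, the pancreatic and mesenteric differences had a Pearson r of 0.699, against 0.598 across all 8251 genes. Of the 71 genes 53 (74.6%) had the same sign, against 66.1% of all genes.

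**Figure D4:**
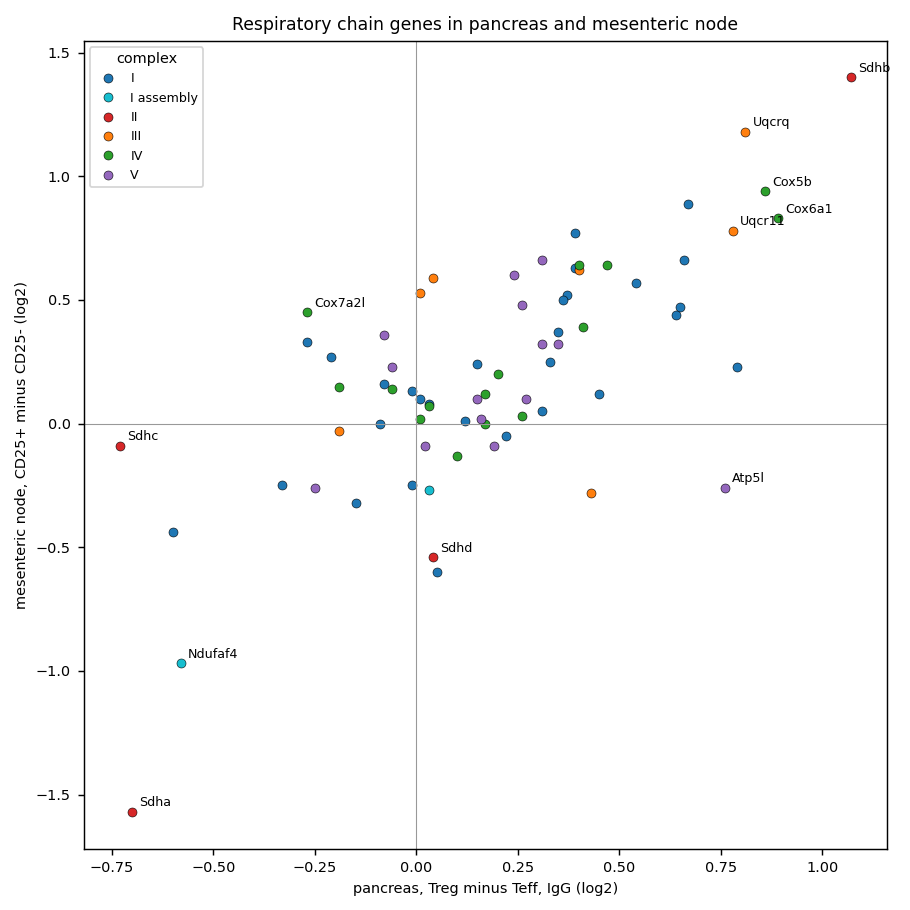
Log2 difference of the 71 genes in the mesenteric node (y axis, CD25+ minus CD25-) against the pancreas (x axis, IgG Treg minus Teff), coloured by complex. Sdhb lies at the upper right (1.07 and 1.40), Sdha (-0.70 and -1.57) and Ndufaf4 (-0.58 and -0.97) at the lower left, and Atp5l (0.76 and -0.26) at the lower right.

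The difference between the pancreatic and the mean node contrast was tested in a joint fit of set 1 and the node set. Of the 71 genes 2 were called, both higher in the pancreas, where 1.41% of all genes were called higher and 0.97% lower. Uqcrb had a difference of 0.71 (SE 0.18, limma adjusted p = 0.0394), from 0.43 in the pancreas and -0.28 and -0.53 in the nodes. Sdhd had a difference of 0.62 (SE 0.16, limma adjusted p = 0.0427), from 0.04 in the pancreas and -0.54 and -0.79 in the nodes. Both calls were lost with the actin ratio as a covariate or with limma's trend and robust options, and the count of called genes ranged from 0 to 3 when single arrays were left out. It was 0 without IgG Treg replicate 1, IgG Teff replicate 2, 3, 4 or 5, mesenteric CD25- replicate 1 or 2, mesenteric CD25+ replicate 2 or 5, or replicate 2 of either peripheral group. It was 1 without mesenteric CD25- replicate 3, mesenteric CD25+ replicate 4, peripheral CD25- replicate 1 or peripheral CD25+ replicate 3. Shares over all genes in these refits are not given here.

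Pancreatic cells were also compared with node cells of the same kind, where tissue and set of records cannot be told apart. As deposited, the exocrine list mean was 6.19 to 6.65 in Teff and 6.21 to 7.07 in Treg arrays of the pancreas. It was 5.19 to 5.32 in mesenteric and 5.19 to 5.37 in peripheral CD25- arrays. In the CD25+ arrays it was 5.34 to 5.66 and 5.31 to 5.52. Hba-a1 averaged 10.08 in Teff against 8.13 and 8.17 in node CD25- arrays, and 11.25 in Treg against 7.69 and 8.55 in CD25+ arrays. The part of such cells was not tested. Pancreatic Teff cells had 14 genes higher and 8 lower than node CD25- cells (14% and 14.6% of all genes). Atp5j, coupling factor 6 of complex V, differed by 0.94 (SE 0.14, limma adjusted p = 0.000128), Cox7a2l by 1.05, Ndufaf4 by -0.77 and Sdhb by 0.87. The Sdhb call stayed only without Teff replicate 2 or 3 or peripheral CD25- replicate 2 when 1 array was removed. Pancreatic Treg cells had 14 higher and 3 lower than node CD25+ cells (12.5% and 12.9% of all genes). Atp5j again differed by 1.04 (SE 0.16, limma adjusted p = 0.000136), Ndufv2, a subunit of complex I, by 1.15 and Cox5b by 0.90. Without mesenteric CD25- replicate 2 the Teff count was 14 in place of 22, and without IgG Treg replicate 2 the Treg count was 10 in place of 17. For these refits the share of all genes called is not given here. As deposited, without joint normalization, the median of all probe sets shifted to 0.32 in both comparisons. The split of the 71 genes then became 44 higher and 1 lower in Teff cells, with 65.8% of all genes called higher and 4.65% lower in the same fit. In Treg cells it became 40 higher and 0 lower, with 59.3% and 2.93% of all genes. With arrays centred on their median the splits were 9 and 9 in Teff cells (10.8% and 20.9% of all genes) and 9 and 4 in Treg cells (10.4% and 14.6%). As deposited, Ndufa10 and Cox5a no longer lay below 0 in the Teff comparison.

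**Figure D5:**
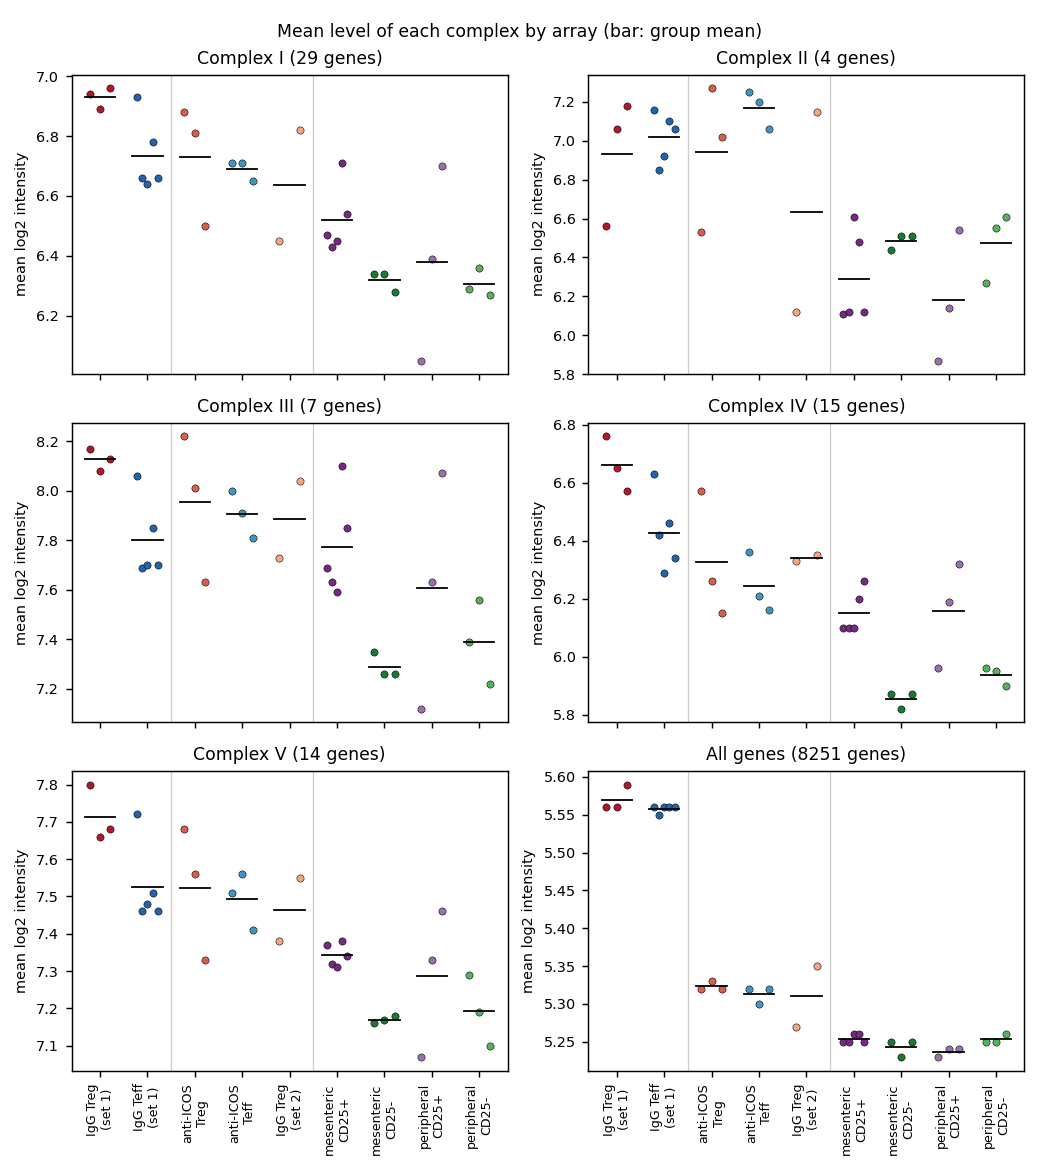
Mean log2 intensity (y axis) over the genes of each complex and over all 8251 genes, by array and group (x axis), with a bar at the group mean; vertical lines part the 3 sets. For complex III the IgG Treg arrays lie at 8.08 to 8.17 and the Teff arrays at 7.69 to 8.06, while complex II has overlapping ranges (6.56 to 7.18 and 6.85 to 7.16).

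Averaged over its genes, complex III was the 1 complex whose Treg and Teff arrays of set 1 did not overlap. Complex I means were 6.89 to 6.96 in Treg and 6.64 to 6.93 in Teff arrays, complex IV 6.57 to 6.76 and 6.29 to 6.63, and complex V 7.66 to 7.80 and 7.46 to 7.72. In complexes I, IV and V, Teff replicate 1 was the array that reached into the Treg range. In the mesenteric node the CD25+ arrays were above the CD25- arrays for complex I (6.43 to 6.71 against 6.28 to 6.34), complex III (7.59 to 8.10 against 7.26 to 7.35), complex IV (6.10 to 6.26 against 5.82 to 5.87) and complex V (7.31 to 7.38 against 7.16 to 7.18). Complex II overlapped there (6.11 to 6.61 against 6.44 to 6.51), and at the peripheral site complexes I, II, III and V overlapped, while complex IV met at its edge (5.96 to 6.32 against 5.90 to 5.96). No test was run on these means.

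Genes that feed or build the chain were read from lists. Over all genes, 4.48% were called higher and 3.24% lower in the pancreas. The shares were 5.49% and 9.14% in the mesenteric and 2.04% and 7.17% in the peripheral node, for this and the lists that follow. Of 17 measured genes of the citric acid cycle and pyruvate dehydrogenase, 0 rose and 3 fell in pancreatic Treg cells. Pdha1 and Pdhb, which encode the E1 subunits of pyruvate dehydrogenase, differed by -1.02 and -0.84, and Suclg2 by -0.41. In each node 4 fell, the same 4 at both sites, Pdha1 (-0.71 and -0.94), Pdhb (-0.48 and -0.71), Dlat, the E2 enzyme (-0.48 and -0.53), and Dld, the E3 enzyme (-1.14 and -1.32). The list median was -0.20 in the pancreas, -0.09 in the mesenteric and -0.28 in the peripheral node.

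Of 18 measured assembly factors, 2 rose and 2 fell in pancreatic Treg cells. Cox17, a copper chaperone for complex IV, differed by 0.93 and Surf1, also of complex IV assembly, by 0.48, while Lrpprc, which stabilizes mitochondrial mRNAs, differed by -0.55 and Foxred1 by -0.37. In the mesenteric node Cox17 (0.70) and Acad9 (0.51) rose and Cox18 (-1.02) fell, and peripherally Cox18 fell (-0.77). The list median was -0.02 in the pancreas, 0.14 in the mesenteric and -0.01 in the peripheral node. Of 16 measured regulators of mitochondrial biogenesis, 0 were called in the pancreas in limma, with 3 at an unadjusted p under 0.05, as were 22.2% of all genes. In the mesenteric node 0 rose and 3 fell, Ssbp1 (-0.94), Gabpa (-0.86) and Polg2 (-0.41), and peripherally Ssbp1 fell (-1.0). The median of this list was -0.12, -0.01 and -0.01. Cyc1, the cytochrome c1 of complex III, rose by 0.89 in the mesenteric node and was the 1 called gene of 6 in its list there. The mitochondrially encoded subunits were not analysed here, since 0 of the 13 were named by a probe set.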

How the data were processed

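The authors deposited 1 linear intensity per probe set and array for 12488 probe sets. Per the submitters' processing notes, RMA made the values of pancreas set 2 and of the lymph nodes. How set 1 was processed was not given in the sources used here. Here log2 was taken of each deposited intensity. No test used the 66 Affymetrix controls. Comparisons within a set used the values as deposited, and fits across sets were quantile-normalized together (15 arrays across pancreas sets, 22 across set 1 and nodes). Fits used lmFit and eBayes of limma 3.58.1 (R 4.3.3, two-sided) with Benjamini-Hochberg adjustment over 12422 probe sets, and the code was tested on simulated data. A gene was read from the probe set with the highest mean over the 30 arrays.

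One array appears in both pancreas sets (r = 0.997 between its records, at most 0.988 with others) and was averaged in joint fits. Control probe sets of the node arrays were stored in another order and were put in order by name for the actin ratios. Groups follow the titles. All peripheral arrays carry a mesenteric tissue entry, and mesenteric CD25+ replicate 2 carries a CD25- source name. Named genes were, per comparison and complex, the called members (up to 10 each way) or, with none called, the 2 largest differences each way, isoform families, and called list genes. The text gives a selection of these. The members and lists were chosen with earlier results of these data known. The labels do not say that anti-ICOS replicate numbers pair Treg and Teff arrays. Deviations from the group means correlated at 0.589, 0.283 and 0.237 between arrays of the same number, which do not all lie in the same run. Alternatives were other normalizations, limma options, a filter on dim probe sets, averaged probe sets, the actin ratio, the array run or replicate number as a block, and leaving out each array. Promoter windows are from RefSeq (GRCm38.p6).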

Additional observations from a re-analysis of the deposited data

Results flagged for a closer look

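Of 90 checks for a single array far from the rest of its group, 8 exceeded Dixon's 95% critical value, which chance does in about 1 of 20. The checks covered only the IgG Teff and the mesenteric CD25+ group, each with 5 arrays. Groups of 3 or fewer arrays were not checked. In the IgG Teff group, replicate 1 was high for Uqcr11 (6.62, the others 6.04 to 6.15), Cox7a2 (8.71, the others 7.95 to 8.09), Ndufb9 (6.63, the others 5.97 to 6.12) and the mean of complex V (7.72, the others 7.46 to 7.51). Replicate 2 of that group was low for Atp5a1 (10.84, the others 11.06 to 11.14). In the mesenteric CD25+ group, replicate 3 was low for Ndufa3 (6.96, the others 7.48 to 7.67) and Atp5md (9.97, the others 10.37 to 10.42), and replicate 5 was low for Uqcrh (8.05, the others 8.42 to 8.51).

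The Treg contrast differed between pancreas and node, by the limma interaction test, for Sdhd (0.62, adjusted p = 0.0427) and Uqcrb (0.71, adjusted p = 0.0394). Tissue and set of records cannot be told apart in this test.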

How the results depend on the processing

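Of 1113 refits of called genes, 854 kept direction and call, 256 kept direction without the call and 3 reversed. The reversals were in pancreatic Teff against node CD25- cells: Ndufa10 (0.02) and Cox5a (0.11) as deposited, and Cox6c (-0.05) with probe sets averaged. With the actin ratio as covariate the counts of called genes were 0 for pancreatic IgG Treg against Teff, 6 in the mesenteric node, 0 in the peripheral node, 5 for pancreatic Treg against node CD25+ cells and 0 for the pancreas minus node contrast. As deposited, Teff against node CD25- gave 45 and Treg against node CD25+ gave 40, and anti-ICOS against IgG Teff gave 5, or 3 with arrays centred on their median. Averaged probe sets gave 3 in the peripheral node, and the trend and robust options gave 1 for the pancreas minus node contrast. Leaving out 1 array gave 6 to 14 genes for IgG Treg against Teff, 4 to 12 in the mesenteric and 2 to 17 in the peripheral node, 14 to 24 for Teff against node, 10 to 22 for Treg against node and 0 to 3 for the pancreas minus node contrast. Both anti-ICOS contrasts, the anti-ICOS Teff comparison and both site comparisons stayed at 0. The causes were not tested. The counts of this paragraph stand without the share of all genes called in the same fit. They do not separate a change in these genes from a change over the whole array. With the replicate number as a block the counts were 4 in the mesenteric and 8 in the peripheral node, and 0 for both anti-ICOS comparisons of set 2. Shares of all genes called with this block are not given here either. The labels do not say that equal numbers pair arrays. The lowest correlations of deviations were 0.0259 in the mesenteric and 0.015 in the peripheral node. Dim probe sets limit 4 of the 71 genes (Cox5a, Cox7a1, Cox8a and Atp5j2), whose means lay below the 25th percentile.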

Other observations

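Glycolysis genes moved both ways, with list medians of 0.06 in the pancreas, 0.03 in the mesenteric and -0.08 in the peripheral node. For all lists of this section, 4.48% of all genes were called higher and 3.24% lower in the pancreas. The shares were 5.49% and 9.14% in the mesenteric and 2.04% and 7.17% in the peripheral node. In pancreatic IgG Treg cells 2 of 17 measured genes rose, Tpi1 (0.90) and Slc2a3 (0.77), a glucose transporter, and 1 fell, Pdk1 (-0.72), the kinase that holds back pyruvate dehydrogenase. In the mesenteric node Tpi1 (1.20), Hk1 (0.50) and Slc2a3 (0.49) rose and Pdk1 (-0.74) and Ldha (-0.64) fell, and peripherally 0 of 17 were called in limma, with 8 at an unadjusted p under 0.05, as were 23.4% of all genes. Of 16 measured genes of fatty acid oxidation, 3 rose in the pancreas, Etfb (0.86), Eci1 (0.64) and Acadl (0.51), and Hadhb fell (-0.68). In the mesenteric node 3 rose and 4 fell, the largest being Cpt1a (-1.22), which lets long-chain fatty acids enter mitochondria, and Acadm (-1.06). Peripherally 3 fell, Acadm (-1.11), Etfa (-0.88) and Hadhb (-0.82). The medians of this list were -0.05, 0.16 and 0.05.

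Of 14 measured genes of oxidant defence and uncoupling, 3 rose in pancreatic Treg cells, Prdx4 (1.0), Txn1 (0.81) and Gpx4 (0.75), and Prdx3 fell (-0.39). Gpx4, which removes lipid peroxides, also rose in the mesenteric (1.29) and the peripheral node (1.30). Of 24 measured carriers, channels and import factors, Timm8a1 was the 1 called gene in the pancreas (-0.80) and fell in both nodes (-1.16 and -1.31), as did the import receptor gene Tomm70a in the nodes (-1.31 and -1.34). Mesenterically 1 carrier gene rose, Timm13 (0.75), and 3 fell, and peripherally 0 rose and 4 fell. Oxidant defence had 3 higher and 1 lower in the mesenteric and 1 of each in the peripheral node. The list medians were 0.01, 0.14 and 0.10 for oxidant defence and 0.02, 0.07 and -0.01 for carriers.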
